A study of Mus musculus with 12 samples.

Results

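The genes described here are 38 genes of the ATF4 programme: transcription factors of the amino acid stress response, the stress proteins, amino acid enzymes and transporters that ATF4 is known to control, and the serine synthesis pathway. They were chosen by symbol, with earlier results of these data known, and their shares set against all genes below carry that limit. They comprise 9 regulators, 7 stress effectors, 7 enzymes of serine synthesis and mitochondrial one-carbon metabolism, 6 other amino acid enzymes and 9 amino acid transporters. All 38 were found among the 52636 gene identifiers counted, and all 38 passed the filter on low counts that left 15859 genes for testing. RNA was sequenced from 12 libraries of mouse embryonic salivary glands, dissected at E13.5 and cultured for 2 days on a permeable membrane. In the FGFRi group, 3 libraries came from wild-type glands given 2.5 µM SU5402, an inhibitor of the kinase activity of FGF receptors. In the DMSO group, 3 libraries came from wild-type glands given the solvent at a matching dilution. The other 6 libraries came from untreated glands of a cross in which K14Cre removes Fgfr2b, the epithelial isoform of an FGF receptor: 2 libraries of homozygous (HOM), 2 of heterozygous (HET) and 2 of wild-type (WT) littermates. Keratin 14 is an epithelial gene, so a deletion driven by its promoter is directed to epithelium, whereas an inhibitor in the medium is not directed to 1 cell type. The 12 libraries share 1 batch label, and the labels do not say which came from separate embryos or litters, so p-values reflect how far these libraries differ among themselves, and some of that spread may be technical.

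ATF4 is a transcription factor whose protein is made when kinases that sense amino acid shortage, unfolded protein or other stress phosphorylate the initiation factor eIF2. It binds with C/EBP partners and raises genes that import amino acids, make serine, glycine, asparagine and proline, charge tRNAs and limit translation. Growth factor signalling through mTORC1 also raises ATF4 in other cells.

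ATF4 and C/EBP proteins bind a composite element, and its form TGATGNAAN, with N for any base, was searched on both strands of RefSeq promoter windows of build GRCm38.p6, from 250 bases before to 50 bases after each gene's start. Of the 38 genes, 32 had a window, and 9 of these 32 (28.1%) held the letters, as did 305 of 11199 tested genes (2.72%) and 3.95% of all 32851 windows. The 38 were chosen as genes of the ATF4 programme, so a higher share can follow from that choice and tests nothing. The windows of Eif4ebp1, Aldh1l2, Cth, Slc7a5, Slc7a3 and Slc1a5 are not analysed here. The 9 genes were Atf3, Chac1, Trib3, Slc7a11, Asns, Nupr1, Slc1a4, Pycr1 and Vldlr. The stretches below are those of 3 genes with large falls under the inhibitor (Chac1, Trib3 and Asns), of the 1 gene that rose (Slc7a11) and of 1 gene that did not pass the test (Nupr1), each read 5′ to 3′ on the gene's strand with the element in capitals.
Chac1: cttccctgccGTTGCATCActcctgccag
Trib3: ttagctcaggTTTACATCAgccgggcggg
Asns: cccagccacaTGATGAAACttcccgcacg
Slc7a11: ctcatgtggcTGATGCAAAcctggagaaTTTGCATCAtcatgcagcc
Nupr1: aaagggccagATTGCATCAgacagggctt
They lie at chr2:119351038-119351066 (plus strand), chr2:152344029-152344057, chr6:7693214-7693242, chr3:50443643-50443689 and chr7:126625563-126625591 (minus strand for these 4), and Slc7a11 holds the element once in each orientation. The cyclic AMP response element TGACGTCA was in the window of 1 of the 32 genes, Ppp1r15a, or 3.13%, and in those of 3.45% of tested genes. A match is a run of letters and not a measured binding site, and the element was held by genes that fell, by the gene that rose and by a gene that did not pass.

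Total counts ran from 6043701 to 22322182 per library, and ribosomal-RNA-like features took 16.1% to 36.1% of them. Fgfr2, counted as a whole gene, was read at 89.2 and 94.4 CPM in HOM glands, 86.2 and 99.9 CPM in HET glands and 101 and 99.2 CPM in WT glands, which does not separate the deleted isoform and so checks nothing about the deletion. All 9 epithelial markers, including Epcam, Cdh1 and Krt14, had reads in each of the 12 libraries. By Xist and Y-linked genes, the FGFRi and HOM libraries, DMSO 1 and DMSO 3 were female, and DMSO 2, HET and WT libraries were male. Levels below are CPM, counts scaled to library size with TMM factors. The scaling makes a gene's level comparable between libraries but not between genes, since length is not corrected. Changes are log2 values ± SE from edgeR's quasi-likelihood test, and genes with a Benjamini-Hochberg adjusted p under 0.05 over all genes tested are referred to as called.

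The inhibitor comparison asks what SU5402 does to the cultured gland, and how far its effects pass through FGF receptors was not tested. Most of the programme was lower in the 3 FGFRi libraries: 32 of the 38 genes fell, 1 rose, and 5 did not pass the test. Over all 15859 genes, 10.7% were called lower and 9.73% higher. The median log2 change of the 38 was -0.70, against -0.015 over all genes. The largest falls were in Chac1, Trib3, Gdf15, Aldh1l2 and Stc2, the gene that rose was the cystine transporter Slc7a11, and the 5 that did not pass were Nupr1, Ppp1r15a, Ddit4, Cth and Cbs. In 33 genes every FGFRi library lay below every DMSO library, which was so for 20.5% of all genes, and in 1 every FGFRi library lay above, which was so for 17.2%. For 23 of the 38, the 3 FGFRi libraries were also below all 9 other libraries of the series, against 8.25% of all genes.

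Summed over the 38 genes, the level was 1392, 1524 and 1509.8 CPM in the 3 FGFRi libraries, against 2381, 2190.1 and 2126 CPM in the 3 DMSO libraries. The groups did not overlap, and the FGFRi libraries were the lowest of all 12. The make-up of the RNA also differed: 18 genes common to epithelia summed to 2302, 2606 and 2649.5 CPM in FGFRi, against 3638, 3790.0 and 3248 CPM in DMSO, and all 18 fell. The 8 mesenchymal markers summed to 4428, 3693 and 3188 CPM in FGFRi, against 1898, 1955 and 2052 CPM in DMSO, and all 8 rose. Skeletal muscle markers summed to 399, 107 and 486 CPM in FGFRi, against 15.8, 32.8 and 44.99 CPM in DMSO. The muscle marker Ckm was at 0 in 4 of the 12 libraries. Of the 9 epithelial markers 8 fell, and Krt14 did not pass, at 0.47. Of 6 nerve and glia markers, 4 rose and 1 fell. The part of these shifts in the falls was not tested other than by rescaling. In whole glands, fewer cells of a type and less RNA per cell cannot be told apart. When libraries were scaled to the 18 epithelial genes, which put the median of all genes at 0.48, 15 of the 38 were called lower and 3 higher, with a median of -0.20. Chac1 was then at -2.44, Trib3 at -2.11, Aldh1l2 at -1.47, Stc2 at -1.26 and Asns at -0.75, all still called, and Ddit4, Ppp1r15a and Slc7a11 were the 3 called higher.

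**Figure D1:**
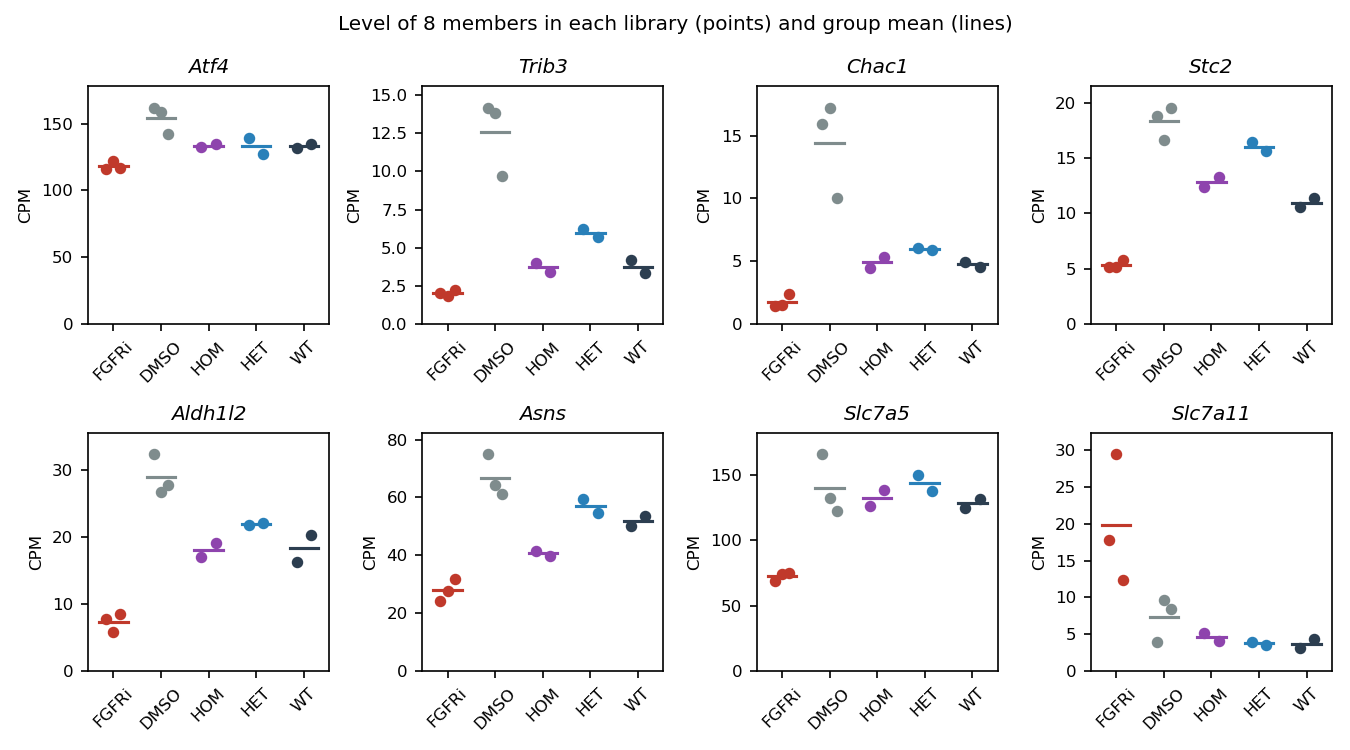
Level of 8 genes in each of the 12 libraries, as TMM-scaled CPM on linear axes from 0, with a point per library and a line at each group's mean. For 7 of the genes the FGFRi points lie below the DMSO points, with the widest gaps in Trib3, Chac1, Stc2 and Aldh1l2, whereas the FGFRi points of Slc7a11 lie above.

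Of the 9 regulators 7 fell, 2 did not pass, and the median change was -0.44. Atf4 RNA itself was read at 116, 122 and 117 CPM in FGFRi glands, against 162, 158 and 142 CPM in DMSO glands. The FGFRi libraries lay close together below all DMSO libraries, a log2 change of -0.38 ± 0.069 (adjusted p = 0.00137), but under epithelial scaling the direction turned to 0.12. Because ATF4 is controlled mainly through translation of its mRNA, this level does not measure its protein. Trib3, a pseudokinase that ATF4 induces and that restrains it in turn, was read at 2.02, 1.84 and 2.27 CPM in FGFRi, against 14.2, 13.8 and 9.69 CPM in DMSO. It fell to 0.165 times its DMSO level (-2.60 ± 0.21, adjusted p = 2.95e-06), with a wide gap between the groups. Atf5, a related factor under the same translational control, was read at 50.8, 49.6 and 47.3 CPM in FGFRi, against 94.2, 80.4 and 82.3 CPM in DMSO. Every FGFRi library was below every DMSO library (-0.80 ± 0.08, adjusted p = 1.49e-05).

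Ddit3, which encodes CHOP, a factor tied to cell death under long stress, was read at 4.59, 4.97 and 4.76 CPM in FGFRi, against 9.71, 9.57 and 7.22 CPM in DMSO. All 3 FGFRi libraries were near the same level and below DMSO (-0.90 ± 0.17, adjusted p = 0.00186). Atf3, a stress-induced repressor, was read at 4.22, 3.24 and 5.98 CPM in FGFRi, against 7.80, 8.84 and 7.55 CPM in DMSO, without overlap (-0.81 ± 0.22, adjusted p = 0.0165). The Atf3 call was lost without FGFRi 1, FGFRi 2 or DMSO 2 (adjusted p up to 0.0841). Cebpb and Cebpg encode C/EBP partners of ATF4. Cebpb was read at 61.3, 72.6 and 76.4 CPM in FGFRi, against 105, 91.8 and 91.6 CPM in DMSO (-0.44 ± 0.087; 0.044 under epithelial scaling). Cebpg was read at 41.1, 47.4 and 45.2 CPM in FGFRi, against 57.5, 54.4 and 52.5 CPM in DMSO (-0.29 ± 0.084; 0.20 under epithelial scaling). Neither overlapped between the groups, and the Cebpg call was lost without any 1 of 5 libraries (FGFRi 1, DMSO 1, DMSO 2, WT 1 or WT 2; adjusted p up to 0.138).

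The 2 regulators that did not pass were read in overlapping ranges. Nupr1, a small stress-induced chromatin protein, was at 40.9, 23.4 and 22.9 CPM in FGFRi and 22.28, 37.0 and 32.3 CPM in DMSO (-0.15 ± 0.20, adjusted p = 0.658). Ppp1r15a encodes GADD34, which directs a phosphatase to eIF2 and ends the response. It was at 12.5, 7.34 and 7.69 CPM in FGFRi and 8.75, 8.17 and 8.70 CPM in DMSO (0.053 ± 0.20, 95% interval -0.37 to 0.48), with FGFRi 1 above all others.

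Of the 7 stress effectors 6 fell, 1 did not pass, and the median change was -0.93. Chac1 encodes an enzyme that degrades glutathione, and it was read at 1.47, 1.51 and 2.38 CPM in FGFRi, against 15.9, 17.2 and 10.02 CPM in DMSO. Even the lowest DMSO library was far above the highest FGFRi library, and Chac1 fell to 0.132 times its DMSO level (-2.93 ± 0.24, adjusted p = 3.49e-06). Stc2, a secreted glycoprotein induced by stress, was read at 5.14, 5.18 and 5.75 CPM in FGFRi, against 18.8, 16.6 and 19.5 CPM in DMSO. Its libraries were tight within each group, and it fell to 0.300 times its DMSO level (-1.73 ± 0.12, adjusted p = 1.74e-06).

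Several effectors act on mTORC1 and translation. Eif4ebp1, which encodes a protein that holds back the cap-binding factor eIF4E, was read at 21.5, 22.5 and 27.5 CPM in FGFRi, against 49.5, 48.3 and 40.4 CPM in DMSO (-0.93 ± 0.11, adjusted p = 7.19e-05). Sesn2, a leucine sensor that restrains mTORC1, was read at 17.2, 20.2 and 18.0 CPM in FGFRi, against 27.7, 25.9 and 28.9 CPM in DMSO (-0.56 ± 0.095, adjusted p = 0.000873). Both were lower in every FGFRi library. Ddit4, which restrains mTORC1 in hypoxia and glucocorticoid signalling too, was read at 45.3, 48.5 and 47.8 CPM in FGFRi and 50.1, 52.2 and 53.7 CPM in DMSO, a narrow gap without overlap that did not pass (-0.14 ± 0.087, adjusted p = 0.298) and that turned to 0.36 under epithelial scaling. Vldlr, a lipoprotein receptor, was read at 44.8, 53.1 and 55.9 CPM in FGFRi, against 70.7, 96.5 and 82.4 CPM in DMSO, lower in every FGFRi library (-0.70 ± 0.11, adjusted p = 0.00055). Gdf15, a stress hormone, was close to the detection limit, with 0, 2 and 3 counts in FGFRi libraries, against 8, 10 and 13 counts in DMSO libraries. It was called, with a fitted change that depends on the prior count (-2.87 ± 0.87, adjusted p = 0.0295), a call lost without any 1 of 5 libraries (FGFRi 1, 2 or 3, DMSO 1 or DMSO 3; adjusted p up to 0.0987).

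All 7 enzymes of serine synthesis and mitochondrial one-carbon metabolism fell, and in each of them every FGFRi library lay below every DMSO library. Their median was -0.80. Phgdh, Psat1 and Psph catalyse the steps that make serine out of a glycolytic intermediate. Phgdh was read at 66.8, 77.7 and 76.2 CPM in FGFRi, against 128, 119 and 106 CPM in DMSO (-0.67 ± 0.083, adjusted p = 8.54e-05). Psat1 was read at 119, 144 and 154 CPM in FGFRi, against 217, 190.2 and 216 CPM in DMSO (-0.57 ± 0.093, adjusted p = 0.000659). Psph was read at 9.73, 9.83 and 10.07 CPM in FGFRi, against 18.9, 17.2 and 16.3 CPM in DMSO (-0.82 ± 0.12, adjusted p = 0.000345). All 3 steps were lower, by changes between -0.57 and -0.82. The 18 pan-epithelial genes had a median of -0.50 in the same comparison, and epithelial scaling put the median of all genes at 0.48. Under epithelial scaling, 15 genes of the whole programme were called lower, in place of 32, and the programme's median was -0.20. Values of Phgdh, Psat1 and Psph under that scaling are not given here, so their falls are shown under TMM scaling only. The part of the lower epithelial RNA in these 3 falls was not tested other than by rescaling.

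Shmt2 splits serine into glycine and a one-carbon unit in mitochondria, and Mthfd2, Mthfd1l and Aldh1l2 act on the folate that carries that unit. Shmt2 was read at 47.9, 52.7 and 53.7 CPM in FGFRi, against 99.3, 84.6 and 83.2 CPM in DMSO (-0.78 ± 0.091, adjusted p = 4.62e-05). Mthfd2 was read at 19.6, 20.6 and 25.4 CPM in FGFRi, against 52.7, 49.7 and 41.5 CPM in DMSO (-1.11 ± 0.11, adjusted p = 1.95e-05). Mthfd1l was read at 19.6, 19.7 and 20.9 CPM in FGFRi, against 41.5, 33.7 and 30.2 CPM in DMSO (-0.80 ± 0.11, adjusted p = 0.00015). These 3 were at 0.463 to 0.582 times their DMSO level. Aldh1l2, which releases the one-carbon unit as carbon dioxide and makes NADPH, stood apart, at 7.71, 5.83 and 8.47 CPM in FGFRi, against 32.3, 26.6 and 27.7 CPM in DMSO. It fell to 0.260 times its DMSO level (-1.94 ± 0.14, adjusted p = 1.74e-06).

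Of the 6 other amino acid enzymes 4 fell, 2 did not pass, and the median change was -0.68. Asns, which makes asparagine, was read at 24.2, 27.8 and 31.9 CPM in FGFRi, against 75.0, 64.3 and 61.1 CPM in DMSO. The highest FGFRi library was well below the lowest DMSO library, and Asns fell to 0.427 times its DMSO level (-1.23 ± 0.10, adjusted p = 4.46e-06). Aldh18a1 and Pycr1 are enzymes of proline synthesis. Aldh18a1 was read at 32.5, 31.2 and 37.4 CPM in FGFRi, against 63.7, 53.4 and 49.9 CPM in DMSO (-0.71 ± 0.10, adjusted p = 0.000257). Pycr1 was read at 5.32, 4.86 and 6.09 CPM in FGFRi, against 8.91, 10.5 and 6.57 CPM in DMSO (-0.70 ± 0.20, adjusted p = 0.0201). Both were lower in every FGFRi library, and the Pycr1 call was lost without FGFRi 1, FGFRi 2 or DMSO 2 (adjusted p up to 0.158). Gpt2, the mitochondrial alanine transaminase, was read at 21.7, 16.7 and 22.9 CPM in FGFRi, against 32.8, 28.1 and 31.4 CPM in DMSO, again without overlap (-0.57 ± 0.12, adjusted p = 0.00305). Cbs and Cth make cysteine out of homocysteine, and both overlapped between the groups. Cbs was at 0.734, 2.05 and 4.04 CPM in FGFRi and 2.87, 5.15 and 3.94 CPM in DMSO (-0.67 ± 0.37, adjusted p = 0.221), and Cth at 6.79, 6.59 and 6.70 CPM in FGFRi and 7.96, 6.56 and 7.39 CPM in DMSO (-0.11 ± 0.19, adjusted p = 0.76).

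All 9 amino acid transporters passed the test, 8 lower and 1 higher, with a median of -0.55. Slc7a5 encodes the light chain of a carrier of large neutral amino acids, and Slc3a2 the heavy chain it shares with Slc7a11. Slc7a5 was read at 68.8, 74.1 and 74.9 CPM in FGFRi, against 166, 132 and 123 CPM in DMSO (-0.95 ± 0.098, adjusted p = 2.06e-05). Slc3a2 was read at 67.7, 77.6 and 70.3 CPM in FGFRi, against 109, 98.9 and 98.0 CPM in DMSO (-0.50 ± 0.073, adjusted p = 0.000302). Both chains were lower in every FGFRi library. Slc7a11, the cystine and glutamate exchanger, went the other way, at 17.8, 29.5 and 12.3 CPM in FGFRi, against 3.98, 9.57 and 8.37 CPM in DMSO. Its FGFRi libraries were widely spread but all lay above the 9 other libraries of the series, and it rose to 2.56 times its DMSO level (1.36 ± 0.30, adjusted p = 0.00576).

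Slc7a1 and Slc7a3 carry cationic amino acids such as arginine. Slc7a1 was read at 78.7, 76.8 and 69.8 CPM in FGFRi, against 129.9, 118 and 107 CPM in DMSO (-0.66 ± 0.083, adjusted p = 8.79e-05). Slc7a3 was read at 0.917, 2.59 and 1.94 CPM in FGFRi, against 6.53, 4.16 and 5.75 CPM in DMSO (-1.48 ± 0.31, adjusted p = 0.00363). Slc6a9, a glycine transporter, was read at 6.24, 5.62 and 5.48 CPM in FGFRi, against 11.5, 11.4 and 11.8 CPM in DMSO (-1.02 ± 0.13, adjusted p = 0.000127). None of these 3 overlapped between the groups. Slc1a4, which carries serine and other small neutral amino acids, was read at 27.5, 33.8 and 29.8 CPM in FGFRi, against 51.1, 35.4 and 44.8 CPM in DMSO (-0.50 ± 0.12). Slc1a5, a glutamine carrier, was read at 30.3, 46.3 and 38.3 CPM in FGFRi, against 68.8, 51.6 and 50.4 CPM in DMSO (-0.55 ± 0.14). In both the gap to DMSO was narrow, and both calls were lost without FGFRi 1 (adjusted p = 0.0510 and 0.0588). Slc38a2, a carrier of small neutral amino acids, was read at 244, 274 and 263 CPM in FGFRi, against 338, 319.8 and 325 CPM in DMSO, lower in every FGFRi library (-0.33 ± 0.072, adjusted p = 0.00468) but at 0.16 under epithelial scaling.

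**Figure D2:**
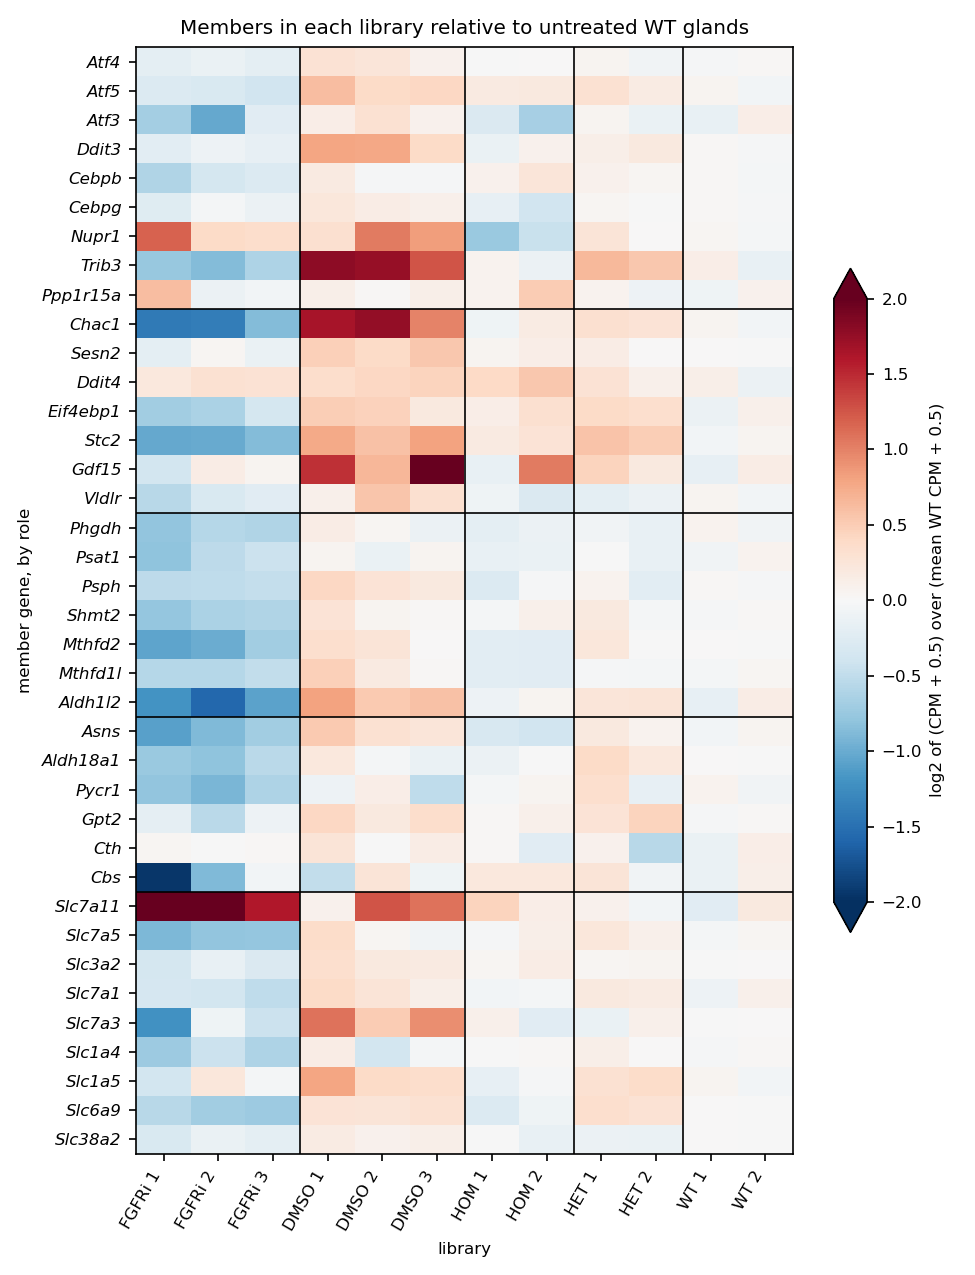
Log2 ratio of each gene's level in each library to its mean in untreated WT glands, with 0.5 CPM added to both, where blue is lower and red higher and colours stop at the ends of the scale. The FGFRi columns are mostly blue and the DMSO columns mostly red, with Slc7a11 red in all FGFRi libraries, and the HOM, HET and WT columns are pale.

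DMSO glands were compared with untreated WT glands, since both are wild type. Part of the programme was higher in DMSO: 7 of the 38 genes were called higher and 0 lower, where 1.27% of all genes were called higher and 0.984% lower, 2.26% in all. The 7 were Trib3, Chac1, Stc2, Atf5, Sesn2, Aldh1l2 and Ddit4, that is 2 regulators, 4 stress effectors and 1 one-carbon enzyme. The median change of the 38 was 0.27, against 0.0043 over all genes. In 25 genes every DMSO library lay above every WT library, where 15.3% of all genes did, and in 0 every DMSO library lay below, where 15.0% did. In 15 genes the 3 DMSO libraries were above all 9 other libraries, against 3.23% of all genes.

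Among the called genes, the largest differences were in Trib3 and Chac1. Gdf15 had a larger fitted change but did not pass (3.04 ± 1.01, adjusted p = 0.156), on 8, 10 and 13 counts in DMSO libraries, against 1 and 2 counts in WT libraries. Trib3 was read at 14.2, 13.8 and 9.69 CPM in DMSO glands, against 4.17 and 3.35 CPM in WT glands. Every DMSO library was far above the higher WT library, and the change was 1.73 ± 0.22 (adjusted p = 0.000255). Chac1 was read at 15.9, 17.2 and 10.02 CPM in DMSO, against 4.98 and 4.54 CPM in WT (1.61 ± 0.24, adjusted p = 0.00154). Stc2 was read at 18.8, 16.6 and 19.5 CPM in DMSO, against 10.5 and 11.3 CPM in WT (0.73 ± 0.13, adjusted p = 0.00539). Neither gene overlapped between the groups. Atf5 was read at 94.2, 80.4 and 82.3 CPM in DMSO, against 63.6 and 59.4 CPM in WT (0.47 ± 0.088, adjusted p = 0.00857). Aldh1l2 was read at 32.3, 26.6 and 27.7 CPM in DMSO, against 16.3 and 20.3 CPM in WT (0.66 ± 0.14, adjusted p = 0.0215). Both were higher in all 3 DMSO libraries. Sesn2 was read at 27.7, 25.9 and 28.9 CPM in DMSO, against 19.8 and 19.7 CPM in WT (0.47 ± 0.10, adjusted p = 0.027). Ddit4 was read at 50.1, 52.2 and 53.7 CPM in DMSO, against 42.3 and 35.9 CPM in WT (0.41 ± 0.098, adjusted p = 0.042). These 2 also did not overlap, and Ddit4 had the weakest call of the 7.

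The remaining 31 genes did not pass in this comparison. Among the regulators, Ddit3 (0.72 ± 0.19, adjusted p = 0.0573) and Nupr1 (0.80 ± 0.23, adjusted p = 0.0992) came nearest, and Atf4 was at 0.21 ± 0.077 (adjusted p = 0.2). Of the serine synthesis enzymes, Phgdh was at 0.022 ± 0.091 (95% interval -0.17 to 0.22) and Psat1 at -0.0053 ± 0.10 (95% interval -0.22 to 0.21). Psph was at 0.30 ± 0.13 (95% interval 0.023 to 0.58, adjusted p = 0.306), with every DMSO library above both WT libraries. Asns was at 0.37 ± 0.11 (adjusted p = 0.113), and Slc7a11 at 1.08 ± 0.40 (adjusted p = 0.208). Pan-epithelial genes summed to 3638, 3790.0 and 3248 CPM in DMSO, against 3344 and 3463 CPM in WT, and 2 of the 18 were called higher. Scaled to those genes, 3 of the 38 were called, Trib3, Chac1 and Stc2, all higher. The labels do not say whether DMSO and WT glands shared litters or days of culture, so the solvent and such differences cannot be told apart. Only the calls of Trib3 and Chac1 were kept without any 1 of the 12 libraries; the other 5 were each lost without WT 1 and without WT 2, either of which left 2 genes called. Sesn2 was also lost without DMSO 1 or DMSO 3, Aldh1l2 without DMSO 1, and Ddit4 without any 1 of 10 libraries. Both WT libraries and DMSO 2 were male, and a fit that also held library sex called 5 genes, all higher: Trib3, Chac1, Stc2, Nupr1 and Vldlr.

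FGFRi glands were also set beside untreated WT glands. This comparison shares libraries with both earlier ones, so values are given side by side and no agreement is drawn between them. Of the 38 genes, 21 were lower in FGFRi than in WT, 1 was higher, and 16 did not pass, where 10.9% of all genes were lower and 9.47% higher, 20.4% in all. Their median change was -0.52. In 29 genes every FGFRi library lay below both WT libraries and in 3 above, where 27.3% and 26.0% of all genes did. By role, 7 of 7 serine and one-carbon enzymes, 3 of 9 regulators and 3 of 7 stress effectors were lower than in WT, and the difference between roles was not tested. The enzymes' changes lay between -1.28 and -0.52, and the call was lost for Psph without WT 1 or WT 2 and for Mthfd1l without WT 2. Of the 22 calls, 11 were kept without any 1 library. Those of all 3 regulators (Atf5, Cebpb and Trib3) were each lost in at least 1 such fit. So were those of Chac1, Eif4ebp1, Pycr1, Slc3a2, Slc7a1 and Slc1a4. Aldh1l2 was read at 7.71, 5.83 and 8.47 CPM in FGFRi, against 16.3 and 20.3 CPM in WT (-1.28 ± 0.16). Phgdh was read at 66.8, 77.7 and 76.2 CPM in FGFRi, against 122 and 109.8 CPM in WT (-0.65 ± 0.091). Asns was read at 24.2, 27.8 and 31.9 CPM in FGFRi, against 49.9 and 53.5 CPM in WT (-0.86 ± 0.11). In none of these 3 did the groups overlap (adjusted p at most 0.000234). Slc7a11 was read at 17.8, 29.5 and 12.3 CPM in FGFRi, against 3.08 and 4.32 CPM in WT, a rise to 5.39 times WT (2.43 ± 0.38, adjusted p = 0.000514).

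Set side by side, the genes fell into different patterns over the 3 wild-type groups. Trib3 averaged 2.04 ± 0.217 CPM in FGFRi, 12.5 ± 2.48 CPM in DMSO and 3.76 ± 0.583 CPM in WT (SD, n = 3, 3 and 2), so the WT level stood between the others and nearer to FGFRi. Chac1 averaged 1.79 ± 0.514 CPM in FGFRi, 14.4 ± 3.84 CPM in DMSO and 4.76 ± 0.312 CPM in WT, in the same order. Sesn2 averaged 18.5 ± 1.52 CPM in FGFRi, 27.5 ± 1.503 CPM in DMSO and 19.7 ± 0.0738 CPM in WT, and its FGFRi and WT libraries overlapped. In Phgdh, Psat1, Shmt2, Aldh18a1 and Slc7a5 the DMSO and WT levels were close and FGFRi was lower. Phgdh, for example, averaged 73.6 ± 5.93 CPM in FGFRi, 117 ± 10.9 CPM in DMSO and 116 ± 8.27 CPM in WT. Under epithelial scaling, 6 genes were lower and 7 higher than in WT, and under scaling to library totals 6 were lower and 2 higher. All FGFRi libraries were female and both WT libraries male, and in a fit that also held library sex 10 genes were lower and 1 higher. Without WT 2, 12 genes were called.

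**Figure D3:**
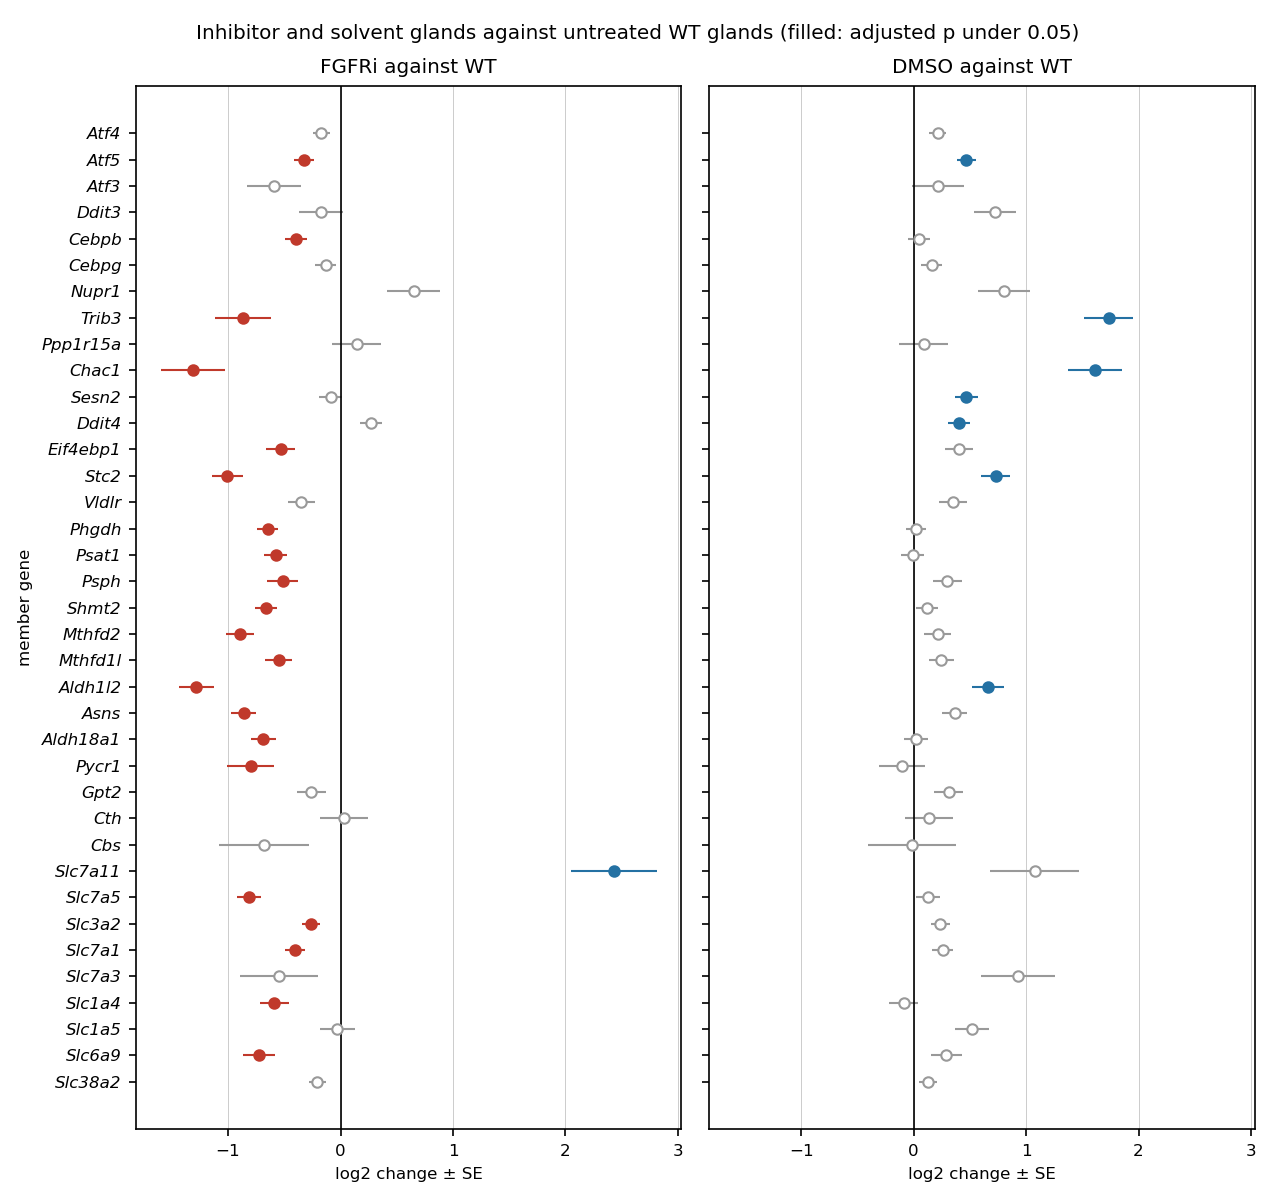
Log2 change ± SE of 37 of the 38 genes in FGFRi glands (left) and DMSO glands (right) against the same 2 untreated WT libraries, with filled points at an adjusted p under 0.05 and Gdf15 left out for its low counts. Filled points are mostly left of 0 in FGFRi, with Slc7a11 at 2.43, and all right of 0 in DMSO, led by Trib3 at 1.73 and Chac1 at 1.61.

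The deletion comparison asks how the 38 genes differ in glands in which K14Cre deletes Fgfr2b. In HOM glands, 1 of the 38 genes was called higher and 1 lower. That is 5.26%, close to the share over all genes, of which 3.44% were called higher and 2.44% lower, 5.88% in all, so the count does not set the programme apart. The median change was -0.087, against 0.00055 over all genes, and 36 genes did not pass. In 7 genes both HOM libraries lay below all 4 WT and HET libraries and in 2 above, where 12.2% and 13.4% of all genes did. Asns was read at 41.4 and 39.8 CPM in HOM glands, against 59.6 and 54.5 CPM in HET glands and 49.9 and 53.5 CPM in WT glands. Both HOM libraries were lower (-0.42 ± 0.10, adjusted p = 0.0278), but the direction turned to 0.036 under epithelial scaling. Ddit4 was read at 51.5 and 57.0 CPM in HOM, against 47.8 and 42.0 CPM in HET and 42.3 and 35.9 CPM in WT. Both HOM libraries were higher (0.37 ± 0.087, adjusted p = 0.0198). Without 1 library, the Ddit4 call was lost for HOM 2, HET 2 or WT 2 (adjusted p up to 0.315) and the Asns call for HOM 1, HOM 2, HET 1, WT 1 or WT 2 (up to 0.289).

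The genes that moved most with the inhibitor did not pass the test in HOM. Chac1 was read at 4.48 and 5.38 CPM in HOM, against 6.06 and 5.87 CPM in HET and 4.98 and 4.54 CPM in WT (-0.10 ± 0.22, 95% interval -0.58 to 0.37). Trib3 was read at 3.999 and 3.43 CPM in HOM, against 6.21 and 5.71 CPM in HET and 4.17 and 3.35 CPM in WT (-0.37 ± 0.20, 95% interval -0.80 to 0.064). Stc2 was read at 12.4 and 13.3 CPM in HOM, against 16.4 and 15.6 CPM in HET and 10.5 and 11.3 CPM in WT (-0.036 ± 0.11, 95% interval -0.28 to 0.20, and 0.42 under epithelial scaling). In all 3 the HOM range lay within or across the control range. Aldh1l2 was at -0.14 ± 0.13 (95% interval -0.41 to 0.14), and Atf4 at 0.0041 ± 0.072 (95% interval -0.15 to 0.16). Phgdh, Psat1 and Psph were at -0.099, -0.10 and -0.11, none of them called, and at 0.34 to 0.36 under epithelial scaling. The genes nearest to a call were Cebpg (-0.29 ± 0.087, adjusted p = 0.0679) and Nupr1 (-0.66 ± 0.22, adjusted p = 0.102), both lower in each HOM library. The 2 control groups differed in make-up: mesenchymal markers summed to 3220 and 2925 CPM in HET and 2097 and 2157 CPM in WT. In HOM they summed to 3224 and 3388 CPM. Pan-epithelial genes summed to 2259 and 2383 CPM in HOM, against 3104 and 2862 CPM in HET and 3344 and 3463 CPM in WT. Scaled to those genes, which put the median of all genes at 0.45, 18 of the 38 were called higher and 0 lower, with a median of 0.37. Genotype moved with sex here, female in HOM and male in HET and WT, and a fit that also held library sex called 0 of the 38 and 46 of all genes.

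Between HET and WT glands, 0 of the 38 genes passed at an adjusted p under 0.05. By edgeR's quasi-likelihood test, 7 had an unadjusted p under 0.05, as did 2144 of all 15859 genes (13.52%), and limma-voom and DESeq2 also called 0. At the adjusted threshold, 0.851% of all genes were called higher and 0.372% lower, 1.22% in all. Stc2 came nearest, at 16.4 and 15.6 CPM in HET, against 10.5 and 11.3 CPM in WT (0.55 ± 0.13, adjusted p = 0.0618). Trib3 was at 6.21 and 5.71 CPM in HET, against 4.17 and 3.35 CPM in WT (0.65 ± 0.24, adjusted p = 0.244). Both HET libraries were above both WT libraries for these 2 genes and for 18 of the 38 in all, where 24.1% of all genes were, and both were below in 2 genes, where 22.1% were. The make-up of the RNA differed too. Mesenchymal markers summed to 3220 and 2925 CPM in HET, against 2097 and 2157 CPM in WT. Skeletal muscle markers summed to 63.5 and 97.8 CPM in HET, against 14.2 and 13.3 CPM in WT. The part of this in the levels of the 38 was not tested.

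The inhibitor and deletion effects were then tested against each other, as the FGFRi change minus the HOM change. In 18 of the 38 genes the FGFRi change was the more negative, and in 0 the more positive, where 1.41% and 1.36% of all genes were called, 2.77% in all. The median difference was -0.59, against -0.0070 over all genes. Of the 5 roles, stress effectors had 5 of 7 called, serine and one-carbon enzymes 6 of 7, regulators 3 of 9, transporters 3 of 9 and other amino acid enzymes 1 of 6. Chac1 differed by -2.83 ± 0.33 (adjusted p = 0.000274), Trib3 by -2.23 ± 0.29 (adjusted p = 0.000747), Aldh1l2 by -1.81 ± 0.19 (adjusted p = 0.000113) and Stc2 by -1.70 ± 0.17 (adjusted p = 5.48e-05). Asns, the 1 gene that was called lower in both comparisons, differed by -0.81 ± 0.15 (adjusted p = 0.00855), so its fall was larger with the inhibitor. The difference for Atf4 was -0.39 ± 0.099 (adjusted p = 0.0514), and that for Slc7a11 1.04 ± 0.47 (adjusted p = 0.28), neither of them called. Under epithelial scaling the median over all genes was 0.035 here, and 11 of the 38 were called, all more negative with the inhibitor. Over all genes, 194 were called in that fit. The effects have different controls: DMSO for the inhibitor, and untreated WT and HET glands for the deletion. The HOM libraries were female and their WT and HET controls male. A fit that also held library sex called 13 of the 38, all more negative with the inhibitor, and 451 of all genes. Without any 1 of the 12 libraries, 6 of the 18 calls were kept (Atf5, Trib3, Chac1, Stc2, Aldh1l2 and Slc7a5), and without HOM 2, 6 genes were called.

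**Figure D4:**
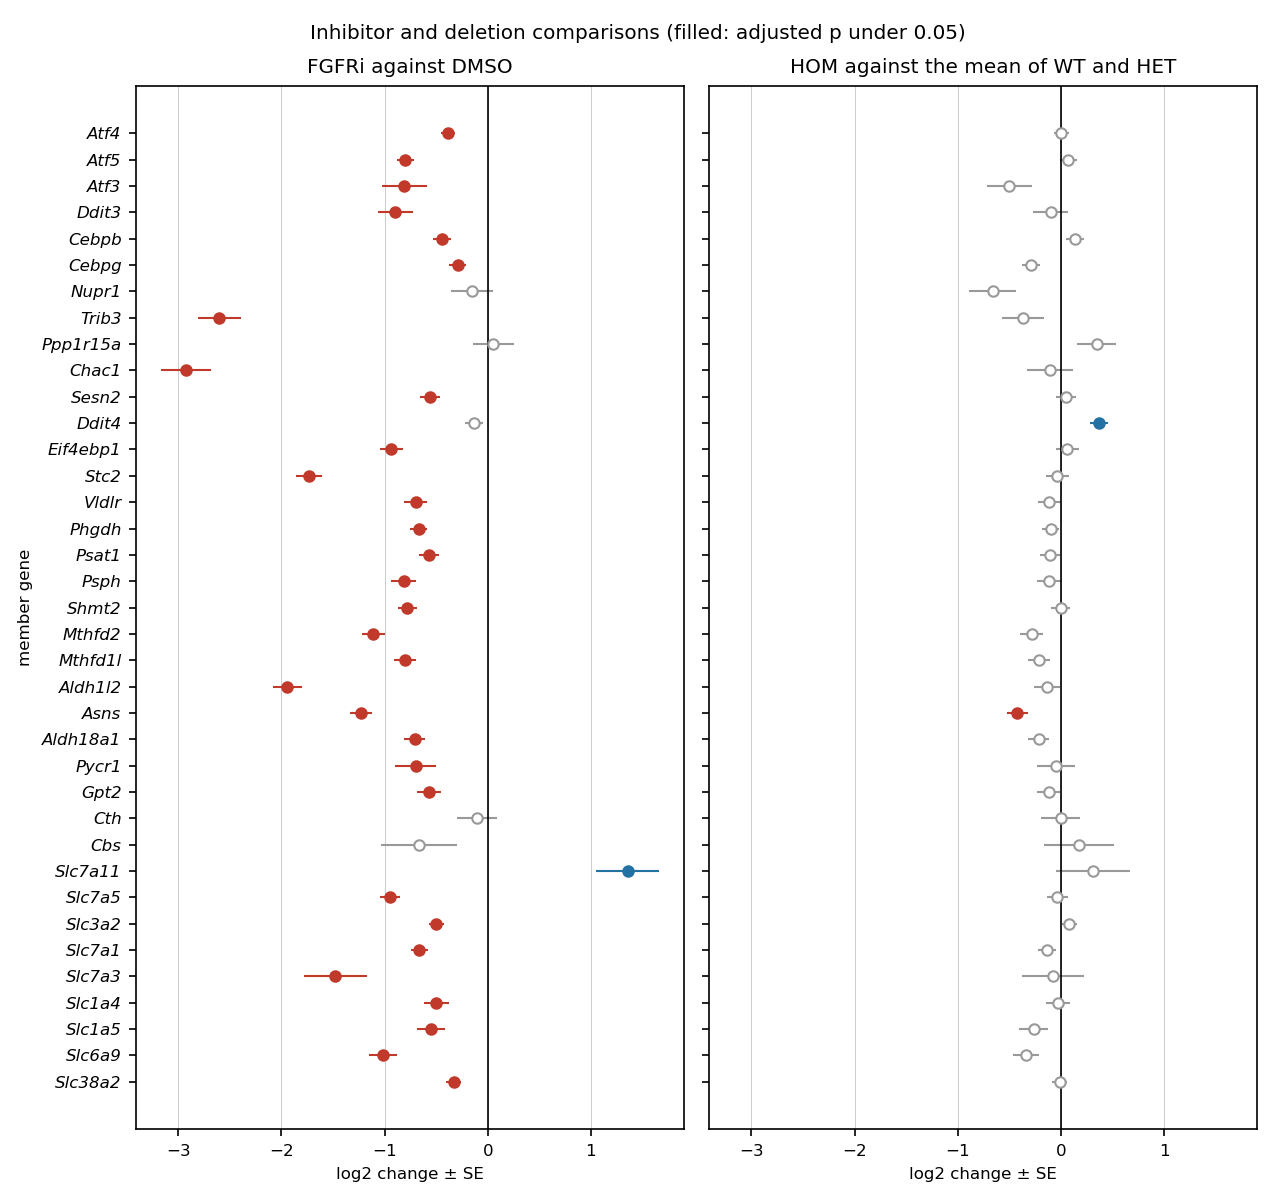
Log2 change ± SE of 37 of the 38 genes in FGFRi against DMSO glands (left) and in HOM glands against the mean of WT and HET glands (right), with filled points at an adjusted p under 0.05 and Gdf15 left out for its low counts. On the left 31 filled points lie below 0 and that of Slc7a11 above, and on the right the filled points are Asns and Ddit4.

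Genes that act beside the programme were read from further lists, against 9.73% of all genes called higher and 10.7% lower with the inhibitor. The 18 pan-epithelial genes had a median of -0.50 in the same comparison, with all 18 called lower. The part of the lower epithelial RNA in the falls of these lists was not tested. Cytosolic aminoacyl-tRNA synthetases, which charge tRNAs with amino acids and many of which ATF4 raises, were mostly lower: 15 of 20 fell with the inhibitor, 0 rose, and the median was -0.42. Nars1, which is also a reported ATF4 target, was read at 97.8, 96.9 and 99.7 CPM in FGFRi, against 154, 142 and 151 CPM in DMSO (-0.60 ± 0.07), and Sars1, for serine, at 100.2, 115 and 122 CPM in FGFRi, against 185, 173 and 159.9 CPM in DMSO (-0.61 ± 0.084). Neither overlapped between the groups. Mars1 and Gars1 were at -0.60 ± 0.084 and -0.48 ± 0.071. Of 20 synthetases 2 fell in HOM glands and 0 rose, with a median of -0.13. In DMSO against WT, 1 fell and 0 rose, with a median of 0.028.

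Of 16 eIF2 kinases and their partners, 3 fell with the inhibitor and 1 rose, with a median of -0.14, a share called that is near the 20.5% over all genes. The gene that rose was Impact, which holds back the amino acid sensor GCN2, at 37.2, 38.4 and 31.7 CPM in FGFRi, against 25.3, 22.9 and 23.5 CPM in DMSO (0.58 ± 0.10, adjusted p = 0.00127). The 3 that fell were Gcn1, a co-activator of GCN2 (-0.45 ± 0.09), Eif2b2, a subunit of the factor that recharges eIF2 (-0.42 ± 0.081), and Ppp1r15b, a partner of the eIF2 phosphatase (-0.38 ± 0.073). Among 19 other reported ATF4 targets tested, 8 fell and 1 rose, with a median of -0.20. Adm2, a secreted peptide, was counted 0, 0 and 3 times in FGFRi libraries, against 14, 44 and 19 times in DMSO libraries. It was nearly undetected in FGFRi and clearly present in DMSO, and no fold is given at these counts. Xpot, which exports tRNA, and Lonp1, a mitochondrial protease, were at -0.47 ± 0.064 and -0.53 ± 0.074.

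Related enzymes and carriers outside the 38 moved in both directions. Of 16 other one-carbon and methionine cycle enzymes tested, 4 fell and 1 rose, with a median of -0.15. Shmt1, the cytosolic counterpart of Shmt2, was at -0.63 ± 0.09, Ahcy at -0.43 ± 0.10, and Srr, which makes D-serine, rose by 0.69 ± 0.18. Of 18 other amino acid transporters tested, 5 rose and 2 fell, with a median of 0.17. Slc7a8, a second carrier of neutral amino acids that pairs with Slc3a2, was read at 18.2, 20.6 and 13.502 CPM in FGFRi, against 6.21, 4.84 and 7.39 CPM in DMSO (1.55 ± 0.21, adjusted p = 0.000142). Its FGFRi libraries were all above DMSO. Slc43a2 was at 0.79 ± 0.14, and Slc38a1 and Slc38a4, relatives of Slc38a2, at -0.59 ± 0.082 and -0.55 ± 0.12.

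Slc7a11 is also a known target of NRF2, the factor of oxidative stress. Of 13 NRF2 and glutathione genes, Slc7a11 included, 4 rose and 2 fell, with a median of -0.091. Hmox1 was read at 17.6, 12.7 and 10.4 CPM in FGFRi, against 5.57, 6.04 and 9.36 CPM in DMSO (0.95 ± 0.22, adjusted p = 0.00607). Nqo1 was read at 7.52, 5.40 and 4.48 CPM in FGFRi, against 2.87, 2.03 and 2.79 CPM in DMSO (1.19 ± 0.28, adjusted p = 0.0071). Both were higher in every FGFRi library, and Gsr, glutathione reductase, fell (-0.32 ± 0.082). Chac1, which degrades glutathione, fell in the same libraries.

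Other stress pathways were read for comparison, beside the pan-epithelial median of -0.50. In the ATF6 and XBP1 branches of the unfolded protein response, 8 of 18 genes fell and 0 rose, with a median of -0.23, and Hyou1 (-0.65 ± 0.11), Sdf2l1 (-0.68 ± 0.14), Dnajc3 (-0.47 ± 0.08) and Hsp90b1 (-0.35 ± 0.08) had the lowest p. Of 12 hypoxia and glycolysis genes tested, 6 fell and 1 rose, with a median of -0.36, among them Pgk1 (-0.65 ± 0.076), Slc2a1 (-0.61 ± 0.10), Hk2 (-0.57 ± 0.097) and Ldha (-0.47 ± 0.079). Of 12 p53 targets 4 rose and 0 fell, with a median of 0.045: Eda2r (1.62 ± 0.21), Cdkn1a (1.30 ± 0.26), Trp53inp1 (0.73 ± 0.12) and Ccng1 (0.44 ± 0.11). Of 9 immediate early genes tested, 3 fell, with a median of -0.47, led by Egr1 (-1.29 ± 0.17), a target of ERK signalling, then Ier2 (-0.60 ± 0.09) and Junb (-0.59 ± 0.16). Of 16 genes of amino acid sensing by mTORC1, 3 rose and 2 fell, with a median of -0.010. Sesn3, a sestrin like Sesn2, rose (0.77 ± 0.081) where Sesn2 fell. Castor2 rose (1.23 ± 0.16), and Deptor (-1.01 ± 0.15) and Rheb (-0.27 ± 0.076) fell.

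**Figure D5:**
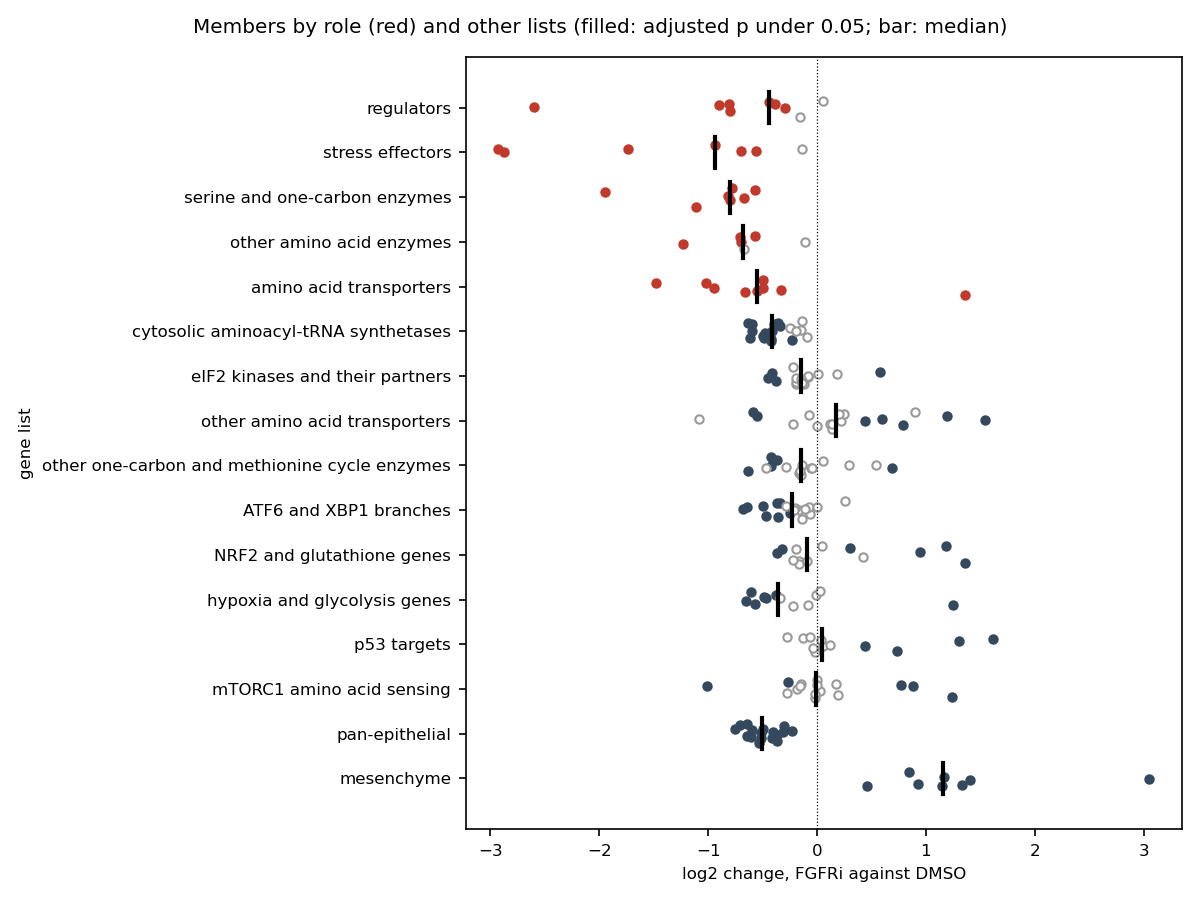
Log2 change in FGFRi against DMSO glands of every tested gene of the 5 roles (red) and of 11 other lists (dark), with filled points at an adjusted p under 0.05 and a bar at each list's median. The 5 roles have medians between -0.93 and -0.44, the synthetases one of -0.42, the pan-epithelial genes one of -0.50 and the mesenchymal markers one of 1.15.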

How the data were processed

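The authors deposited 1 table of unnormalized read counts by gene and library, all whole numbers. Build GRCm39, bcl2fastq and STAR are named in the submitters' processing notes. No source used here gives the counting program, its strand setting or its annotation, so reads shared with overlapping genes or near-identical copies may be misplaced. Per the labels' protocols, ribosomal RNA was depleted before library preparation. Symbols were matched by Ensembl identifier to GENCODE M21 names (52403 of 52636). Promoter sequences and their coordinates are RefSeq's, of build GRCm38.p6.

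Genes were tested in R 4.3.3 with edgeR 4.0.16: default filterByExpr (count of at least 10, total of at least 15), TMM factors, and a quasi-likelihood fit of all 12 libraries with 1 coefficient per group (7 residual and 7.96 prior degrees of freedom). P-values were two-sided, with Benjamini-Hochberg adjustment over the 15859 genes of a comparison. SE is the log2 change divided by the square root of F, and intervals are at 95%. Reads carry no molecular identifiers, so counting floors were not used. No pair of replicates agreed within sampling noise. The 38 genes and the other lists were chosen with earlier results of these data known. Named genes are all 38, with every library printed for those called at a mean of at least 1 CPM, and up to 4 called genes by p of each other list, of which 1 is not reported here. The alternatives were other scalings, filters, models and tools (limma 3.58.1, DESeq2 1.42.0), each library left out, a replicate block and library sex; the block with WT numbers crossed was added after seeing the data. The fit was tested on simulated data.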

Additional observations from a re-analysis of the deposited data

Results flagged for a closer look

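In 18 of the 38 genes the change with the inhibitor differed from the change with the deletion by the test of the difference itself (edgeR's quasi-likelihood test, adjusted p under 0.05), and in each the inhibitor change was the more negative. The log2 differences were -2.83 for Chac1, -2.23 for Trib3, -1.81 for Aldh1l2 and -1.70 for Stc2. They were -0.995 for Eif4ebp1, -0.91 for Slc7a5, -0.87 for Atf5, -0.83 for Mthfd2, -0.81 for Asns, -0.78 for Shmt2 and -0.71 for Psph. They were -0.61 for Sesn2, -0.59 for Mthfd1l, -0.58 for Cebpb, -0.58 for Slc3a2, -0.57 for Phgdh, -0.53 for Slc7a1 and -0.51 for Ddit4. Without any 1 library, 6 of the 18 calls were kept, and those of Ddit4 and Mthfd1l were lost in 11 of 12 such fits. Ddit4 did not pass with the inhibitor (-0.14) and was higher in HOM (0.37). The controls of the inhibitor glands had solvent and those of the deletion glands had none, and the part of that in these differences was not tested beyond the comparison of DMSO with WT glands. Genotype also moved with sex, and a fit that held library sex called 13 of the 38.

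In the 4 WT and HET libraries taken as 1 group, HET 1 stood above the other 3 for Sesn2 and Mthfd2, by a gap wide beside their narrow spread. Sesn2 was at 22.03 CPM in HET 1, against 19.9, 19.8 and 19.7 CPM in HET 2, WT 1 and WT 2. Mthfd2 was at 48.6 CPM in HET 1, against 41.3, 41.5 and 41.4 CPM in HET 2, WT 1 and WT 2. Chance gives such a gap in about 1 of 20 groups of this size, and 38 genes were looked at. The groups of 3 or 2 libraries were too small for this check.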

How the results depend on the processing

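The 33 calls of FGFRi against DMSO numbered 22 with scaling to library totals, 18 with epithelial scaling and 30 to 33 in all other alternatives that kept the 12 libraries, and 27 to 33 with 1 library left out. The 2 calls of HOM became 0 with library totals, with HET alone as control or with sex, 1 with WT alone, 18 with epithelial scaling, and 0 to 3 with 1 library left out. HET against WT gave 2 calls with epithelial scaling, 1 with sex, and 0 to 1 with 1 library left out. The 7 calls of DMSO against WT became 3 with epithelial scaling, 11 with no filter and 5 with sex, and 2 to 7 with 1 library left out. The 22 calls of FGFRi against WT became 8 with library totals, 13 with epithelial scaling and 11 with sex, and 12 to 24 with 1 library left out. The 18 differences between effects became 7 with library totals and 11 with epithelial scaling, and 6 to 18 with 1 library left out. With sex, the 18 differences became 13. The cause of these shifts was not tested.

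Same-numbered deviations correlated at -0.117 to -0.025 between FGFRi and DMSO, at -0.147, -0.126 and -0.044 between HOM and WT, HET and WT, and HOM and HET, and at -0.11 to 0.027 between DMSO and WT. Between groups not directly compared, they correlated at 0.22 to 0.26 for DMSO and HET and at 0.038 to 0.084 for FGFRi and HOM. No compared pair of groups was over 0.1 throughout, so the numbers were not taken to pair the libraries. With a replicate block, the calls were 33 for FGFRi against DMSO, 1 for HOM, 0 for HET, 4 for DMSO against WT, 18 for FGFRi against WT and 14 for the difference. With the WT numbers crossed, chosen after seeing the data, they were 33, 2, 0, 5, 19 and 15.

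Among results called in the main fit or in the alternative, only epithelial scaling turned directions, 24 in all. Results called in neither fit turned direction under other alternatives too, 34 under library totals and 34 under epithelial scaling. In FGFRi against DMSO, Atf4 went to 0.12, Cebpb to 0.044, Cebpg to 0.20, Ddit4 to 0.36 and Slc38a2 to 0.16. In HOM, Stc2 went to 0.42, Vldlr to 0.35, Phgdh to 0.36, Psat1 to 0.36, Psph to 0.34, Shmt2 to 0.45, Asns to 0.036, Slc7a5 to 0.42, Slc7a1 to 0.32, Slc1a4 to 0.43 and Slc38a2 to 0.45. In FGFRi against WT, Atf4 went to 0.26, Atf5 to 0.10, Cebpb to 0.026, Cebpg to 0.30, Sesn2 to 0.33, Slc3a2 to 0.17, Slc7a1 to 0.032 and Slc1a5 to 0.39.

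Over all genes, the 3245 calls of FGFRi against DMSO became 1303 with library totals, 2153 with sex and 9197 with epithelial scaling. The 933 of HOM became 46 with sex, 237 with HET alone, 1449 with no filter, 1406 with only the groups compared and 9039 with epithelial scaling. With no filter, HET against WT gave 655 calls in place of 194, DMSO against WT 797 in place of 358, and the difference 1003 in place of 439. The difference also gave 169 with library totals, 194 with epithelial scaling and 277 with the replicate block, and HET against WT 295 with epithelial scaling. The 3235 of FGFRi against WT became 695 with sex, 1559 with library totals and 7202 with epithelial scaling. Library totals put the median of all genes at 0.18 in FGFRi against WT and at -0.14 in the difference. With 1 library left out, the counts were 1896 to 3262 for FGFRi against DMSO, 140 to 1131 for HOM, 25 to 258 for HET, 110 to 370 for DMSO against WT, 1344 to 3377 for FGFRi against WT and 77 to 560 for the difference. Depth limits Gdf15 and Adm2 most, whose counts in FGFRi libraries were at most 3. Counts in FGFRi 1, 2 and 3 were also low for Chac1 (8, 14 and 43), Trib3 (11, 17 and 41), Slc7a3 (5, 24 and 35) and Cbs (4, 19 and 73).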
